A study of Mus musculus with 6 samples.

Results

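Keratin and desmosome genes, the structural genes of epithelial cells, were described in RNA of the mouse temporomandibular joint (TMJ), the hinge between the lower jaw and the skull. The members were the rows of the count table whose symbol is a numbered keratin (Krt), a desmoglein (Dsg), a desmocollin (Dsc), Dsp, a plakophilin (Pkp1 to Pkp4), Jup, Ppl, Evpl or Trp63, and 1 keratin is not reported here. This gave 52 of 22032 listed genes, and 25 of the 52 had enough counts to be tested. Libraries were made with an mRNA isolation kit from the TMJ of Igf2bp2-KO mice (3 libraries) and from their Igf2bp2-WT littermates (3 libraries), all aged 10 weeks. Igf2bp2 encodes an RNA-binding protein, and the sources used here do not give the deleted part of the gene, the strain or the cells that carry the deletion. The labels do not say that each library is a separate animal, so the tests speak of the spread among these samples, and that spread may be technical.

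Keratins are intermediate filament proteins that assemble as obligate partners, a type I with a type II keratin. Krt5 with Krt14 marks the basal layer of stratified epithelia and the myoepithelial cells of glands, and Krt8 with Krt18 or Krt19 marks simple and ductal epithelia. Desmosomes tie these filaments to the cell membrane: desmogleins and desmocollins are the adhesive cadherins, plakoglobin (Jup) and plakophilins bind their tails, and desmoplakin (Dsp) carries the filaments. The joint cavity itself is lined by synovium, which is not an epithelium.

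Total counts were 28551236 to 35094127 per library, of which nuclear genes held 4604575 to 4899680 in KO and 2625472 to 3205190 in WT. Igf2bp2 stood at 0.334, 0.332 and 0.252 CPM (read counts relative to library size, scaled with TMM factors, the trimmed mean of M-values) in KO 1 to 3 and at 1.3, 0.874 and 0.931 CPM in WT 1 to 3. KO 1 and KO 3 differed by less than sampling noise, as did WT 2 and WT 3: over genes, the median variance between them was 0.941 and 0.964 of that of counting read pairs (mean ratios 1.18 and 1.08). KO 1 and KO 3 were therefore counted as 1 sample, and so were WT 2 and WT 3. Tests, means and SDs therefore rest on n = 2 samples per group (KO 1+3 and KO 2, WT 1 and WT 2+3), while levels are shown for all 6 libraries. Since a sum hides the spread of its libraries, an SD can be far smaller than the spread of the 3 libraries of a group. As for the tissue, skeletal muscle genes summed to 6230 to 7280 CPM in KO and 4160 to 5840 CPM in WT, and chondrocyte genes to 8.78 to 10.8 CPM in KO and 10.9 to 12.8 CPM in WT. Of the 6 chondrocyte markers listed, 4 were measured, and none was called by edgeR (0 at an unadjusted p under 0.05, and 0 by DESeq2).

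The promoters of 4 members that differ in level and in change are shown for their letters next to the start of transcription. RefSeq's table for GRCm38.p6, a build other than the mm39 of the counts, held promoters of 10 of the 25 tested members. The last 150 bases before the most upstream start are printed 5′ to 3′. Capitals mark ATAAAAGG, a TATA-like motif, or GGGCGG, the GC box, on either strand, and both motifs were chosen after the sequences had been seen. Krt5 lies at chr15:101712906-101713055, minus strand, Krt13 at chr11:100121567-100121716, minus strand, Pkp4 at chr2:59160700-59160849, plus strand, and Jup at chr11:100397791-100397940, minus strand.
Krt5: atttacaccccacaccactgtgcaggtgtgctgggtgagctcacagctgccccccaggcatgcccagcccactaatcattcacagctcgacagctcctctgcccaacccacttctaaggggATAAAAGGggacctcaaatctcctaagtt
Krt13: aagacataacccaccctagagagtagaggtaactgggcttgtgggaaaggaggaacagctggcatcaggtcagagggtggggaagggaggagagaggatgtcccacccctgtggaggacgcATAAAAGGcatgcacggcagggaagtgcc
Pkp4: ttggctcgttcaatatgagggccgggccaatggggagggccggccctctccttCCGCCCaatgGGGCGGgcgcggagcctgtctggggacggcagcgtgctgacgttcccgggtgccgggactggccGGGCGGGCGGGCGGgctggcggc
Jup: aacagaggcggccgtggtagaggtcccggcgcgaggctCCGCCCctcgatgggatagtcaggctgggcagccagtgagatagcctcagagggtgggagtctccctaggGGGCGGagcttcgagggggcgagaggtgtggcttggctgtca
Krt5 and Krt13 had ATAAAAGG with its first base 29 bases before the start (position -29) and no GC box. ATAAAAGG was in 344 of 32851 promoter windows of this length (1.05%). Among the 10 members matched only these 2 had it, and the keratins Krt8, Krt10, Krt14, Krt18 and Krt23 did not. This holds for the exact letters ATAAAAGG only. Other TATA-like forms were not searched, and Krt10 has tatataaagg in its window. Pkp4 had 5 matches of the GC box, some overlapping, Jup had 2, and neither had ATAAAAGG. The GC box was in 28.6% of all windows, and among the 10 members matched it was in 3, the other being Dsp.

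Across all genes, edgeR's quasi-likelihood test at a false discovery rate (FDR) of 0.05 called 9.15% of 14632 tested genes higher in KO and 8.48% lower. Of the 25 tested members 3 were called higher (Pkp4, Krt19 and Krt13, 12%) and 1 lower (Krt5, 4%), shares near those of all genes. The 6 libraries did not overlap between groups for 6 tested members that were higher in KO and for 2 that were lower, where 19.1% and 19.3% of all tested genes did not overlap in these directions. The median log2 fold change (KO minus WT) of the tested members was 0.29, and 0.21 without Krt13, beside -0.01 over all tested genes, and 15 of 25 changes were above 0, beside 49% of all tested genes. It ranged from 0.09 without KO 2 to 0.25 without WT 1 or WT 2 when 1 library was left out. These fits tested 23 to 29 members, so their medians are not of the same genes. Krt13, Pkp2 and Krt23 passed the filter on low counts through the KO samples only, and no tested member passed through WT samples only. This selection favours changes above 0, so the median and the count above 0 are partly a result of the filter. Scaled to library totals without TMM, the median of all genes moved to 0.54. Mitochondrial transcripts took 85.3% to 86% of counts in KO and 90.6% to 90.8% in WT. Changes are given relative to the TMM scale throughout. In bulk tissue, fewer cells of a type and less RNA per cell cannot be told apart.

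**Figure D1:**
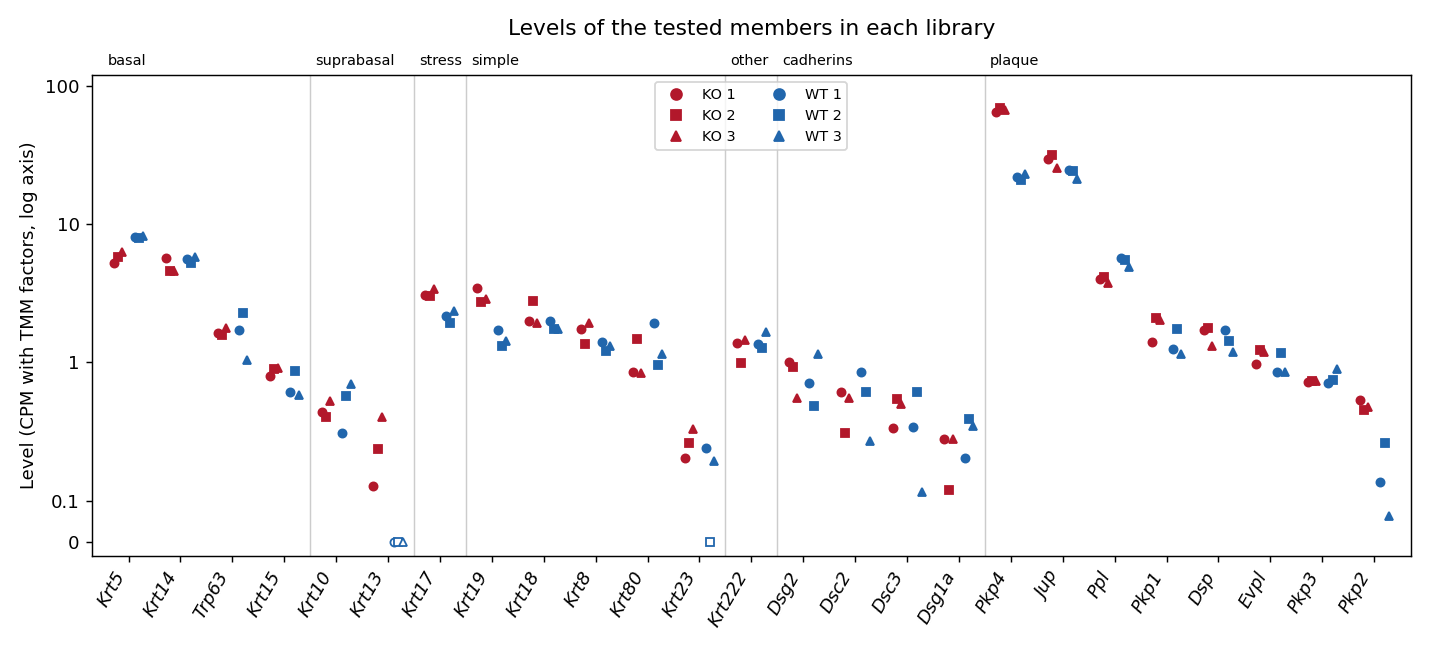
Level of each of the 25 tested members in each library, in CPM with TMM factors on a log axis, KO red and WT blue, grouped by role, with open symbols at the bottom for a count of 0. Pkp4 stands above all other members in KO at 64.8 to 69.1 CPM, lies at 20.7 to 23 CPM in WT beside Jup at 21.1 to 24.5 CPM, and Krt13 has no count in WT.

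Among the basal layer genes, Krt5 was lower in KO while its partner and its regulator were not called. Krt5, the type II keratin of basal cells, had 5.24, 5.74 and 6.26 CPM in KO 1 to 3 and 8.08, 7.96 and 8.27 CPM in WT 1 to 3. All KO libraries lay below all WT libraries. Krt5 averaged 5.77 ± 0.018 CPM in KO, against 8.13 ± 0.0366 CPM in WT (SD, n = 2). The log2 fold change was -0.49 with an SE of 0.13 (edgeR, FDR 0.0199). The change was also -0.49 without KO 2, which leaves KO with 1 sample, and with DESeq2's Wald test, where it did not pass (FDR 0.18 and 0.115). Over 14 alternatives on normalised scales the edgeR and DESeq2 FDR ranged from 0.00336 to 0.18. On library totals the direction turned (0.06, FDR 0.767), which is below the 0.54 of the median gene on that scale.

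Krt14, the type I partner of Krt5, had 5.65, 4.55 and 4.62 CPM in KO 1 to 3 and 5.59, 5.25 and 5.74 CPM in WT 1 to 3. The groups overlapped, and the difference was -0.19 (95% interval -0.51 to 0.13, FDR 0.442). Trp63, the p63 transcription factor that maintains basal epithelial cells, had 1.62, 1.59 and 1.77 CPM in KO 1 to 3 and 1.71, 2.27 and 1.05 CPM in WT 1 to 3. WT 2 and WT 3 lay on either side of all KO libraries, and the difference was -0.01 (95% interval -0.50 to 0.48, FDR 0.984). Krt15, a basal keratin that also marks stem cells of the hair follicle, was at 0.796 to 0.909 CPM in KO and 0.582 to 0.874 CPM in WT and was not called (0.38, FDR 0.502). Reads of Krt5, Krt14 and Krt17 may be shared with close paralogs such as the Krt6 genes and Krt16, since the rule for such reads is not given.

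Among the keratins of simple epithelia, Krt19 was 1.95-fold higher in KO, and the Krt8 and Krt18 partners were not called. Krt19, a type I keratin of ducts, had 3.44, 2.75 and 2.88 CPM in KO 1 to 3 and 1.71, 1.31 and 1.44 CPM in WT 1 to 3. Every KO library was above every WT library. Krt19 averaged 2.97 ± 0.292 CPM in KO, against 1.55 ± 0.231 CPM in WT (SD, n = 2). The log2 fold change was 0.97 with an SE of 0.21 (edgeR, FDR 0.00615), and the gene was called in all 14 alternatives on normalised scales (FDR 0.000242 to 0.0319).

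Krt18 had 1.98, 2.8 and 1.94 CPM in KO 1 to 3 and 1.98, 1.75 and 1.75 CPM in WT 1 to 3. Its difference of 0.34 (95% interval -0.16 to 0.84, FDR 0.363) rests mostly on KO 2, and the other KO libraries lay at or beside the WT values. Krt8 had 1.75, 1.35 and 1.94 CPM in KO 1 to 3 and 1.4, 1.22 and 1.32 CPM in WT 1 to 3, a difference of 0.29 (95% interval -0.26 to 0.84, FDR 0.5). These partners lie next to each other on chromosome 15, and pseudogene copies of both exist, so their counts are uncertain. Krt80, a type II epithelial keratin, was at 0.833 to 1.47 CPM in KO and 0.962 to 1.94 CPM in WT (-0.38, FDR 0.533). Krt23, a type I epithelial keratin, had 8, 11 and 13 counts in KO 1 to 3 and 7, 0 and 5 counts in WT 1 to 3 (0.73, FDR 0.496).

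Krt13, the type I keratin of the suprabasal layers of oral and oesophageal epithelium, was detected in KO libraries and not in WT libraries. It had 5, 10 and 16 counts in KO 1 to 3 and 0 counts in WT 1 to 3. In level this was 0.128, 0.237 and 0.404 CPM in KO, and 0 counts allow up to 0.0773 CPM over the WT group (3 read pairs, or 6 counts). A read pair appears to give 2 counts, since each library listed 4.69 to 5.06 genes with 2 counts for every gene with 1. The level of Krt13 over the KO group was 3.34-fold the floor of the WT group, a value that carries no counting error on the KO side. The edgeR test, which does not use the floor, called Krt13 higher (FDR 0.00808). Krt13 passed the filter on low counts through the KO samples only, and in 7 of 14 alternatives it did not pass that filter. Of 6 fits that left out a library it was tested in 2 and called in 1: its FDR was 0.0245 without WT 1 and 0.0854 without KO 2, each of which leaves that group with 1 sample.

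Krt10, the type I keratin of suprabasal epidermis, had 0.437, 0.403 and 0.53 CPM in KO 1 to 3 and 0.307, 0.568 and 0.699 CPM in WT 1 to 3. The groups overlapped (-0.13, 95% interval -1.13 to 0.86, FDR 0.89). Krt1, which pairs with Krt10, had 3, 4 and 0 counts in KO 1 to 3 and 0 counts in each WT library. Krt17, induced in stressed and glandular basal cells, had 3.06, 3.01 and 3.41 CPM in KO 1 to 3 and 2.15, 1.92 and 2.37 CPM in WT 1 to 3. The groups did not overlap, but the log2 fold change of 0.54 (SE 0.19, FDR 0.064) did not pass. Krt17 was called in 2 of 14 alternatives on normalised scales, among them 6 separate libraries (FDR 0.0226). Krt222, a keratin-related gene, had 1.39, 0.996 and 1.46 CPM in KO 1 to 3 and 1.36, 1.27 and 1.67 CPM in WT 1 to 3, which overlap (-0.21, FDR 0.666).

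Krt13, Krt15 and Krt19 are neighbours in the type I keratin cluster of chromosome 11 in RefSeq's gene order for GRCm38.p6. Krt13 and Krt19 were called higher, and Krt15, which lies between them, was not called. Of the 52 members 22 lie on chromosome 11, 16 on chromosome 15 and 7 on chromosome 18.

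**Figure D2:**
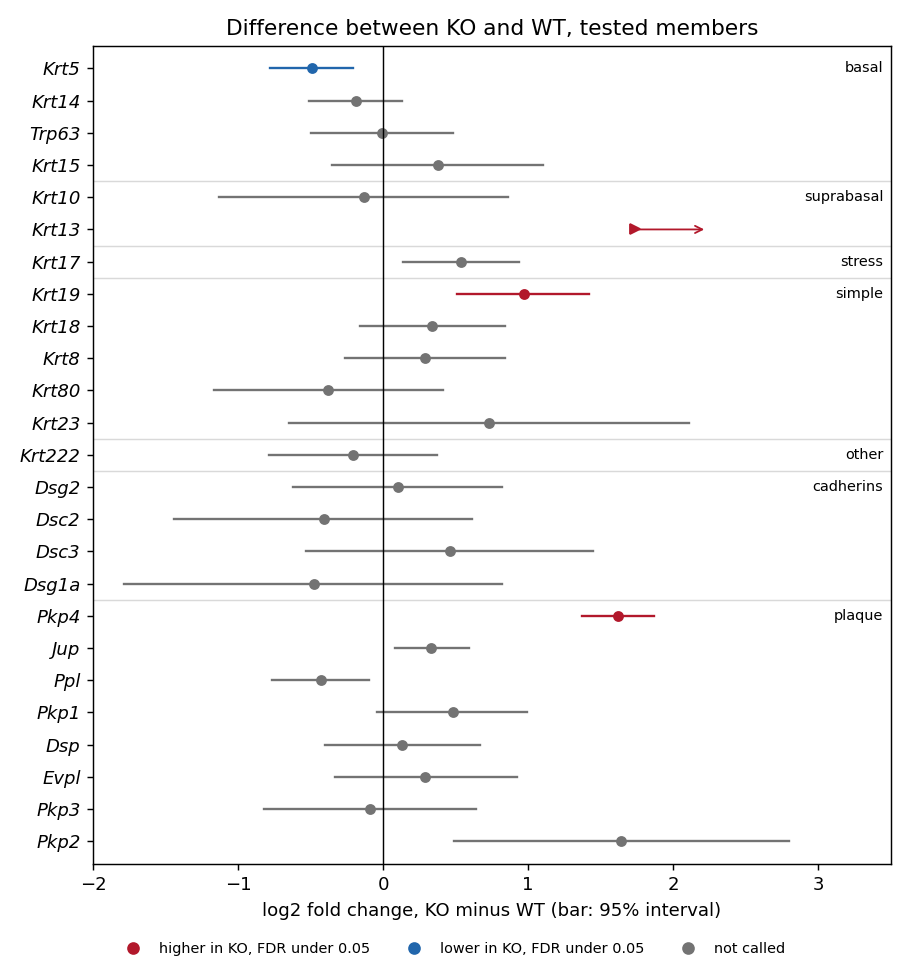
Log2 fold change of each tested member, KO minus WT, with its 95% interval from edgeR, red where higher and blue where lower at an FDR under 0.05 and grey where not called. Krt13, with no count in WT, is drawn as an arrow from 3.34-fold, its KO level over the WT floor, Pkp4 is at 1.62 and Krt5 at -0.49.

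Of the desmosomal plaque genes 1 of 8 was called, Pkp4, which was also the most abundant member in KO. Pkp4 encodes plakophilin 4 (p0071), an armadillo protein of the p120-catenin family that sits at adherens junctions and at desmosomes and is also found outside epithelia. It had 64.8, 69.1 and 66.3 CPM in KO 1 to 3 and 21.9, 20.7 and 23 CPM in WT 1 to 3. The KO libraries lay close together, far above the WT libraries. Pkp4 averaged 67.7 ± 2.47 CPM in KO, against 22 ± 0.0261 CPM in WT (SD, n = 2). It was 3.08-fold higher in KO, a log2 change of 1.62 with an SE of 0.12 (edgeR, FDR 6.92e-07). Pkp4 was called in all 14 alternatives on normalised scales, with changes of 1.58 to 1.66, and was at 2.17 on library totals. Its relative Ctnnd1 (p120-catenin), of the adherens and tight junction list, was not called, with 25.3, 27.2 and 25.4 CPM in KO 1 to 3 and 25.3, 23.8 and 24.2 CPM in WT 1 to 3 (0.09, 95% interval -0.14 to 0.33, FDR 0.627).

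Jup, plakoglobin, which serves desmosomes and adherens junctions alike, had 29.5, 31.7 and 25.5 CPM in KO 1 to 3 and 24.5, 24.3 and 21.1 CPM in WT 1 to 3. The lowest KO library was above the highest WT library, by a small margin. The change of 0.33 (95% interval 0.08 to 0.59, FDR 0.0726) did not pass. Jup was called in 4 of 14 alternatives on normalised scales, among them 6 separate libraries (FDR 0.0193), no filter (FDR 0.0327) and without KO 3 (FDR 0.038).

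Dsp, the plakin that anchors keratin filaments, had 1.72, 1.78 and 1.31 CPM in KO 1 to 3 and 1.71, 1.44 and 1.2 CPM in WT 1 to 3. The groups overlapped, and the difference was 0.13 (95% interval -0.40 to 0.67, FDR 0.776). Ppl, periplakin, another plakin, had 4.01, 4.17 and 3.76 CPM in KO 1 to 3 and 5.69, 5.51 and 4.93 CPM in WT 1 to 3. All KO libraries were below the WT libraries, with a difference of -0.43 (95% interval -0.77 to -0.10, FDR 0.0723) that did not pass. Ppl was called in 2 of 14 alternatives on normalised scales, among them 6 separate libraries (FDR 0.0217), and its difference turned to 0.12 on library totals. Evpl, the envoplakin partner of Ppl, was at 0.976 to 1.23 CPM in KO and 0.853 to 1.18 CPM in WT (0.29, FDR 0.556).

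Pkp2, the plakophilin of simple epithelia and heart muscle, had 21, 19 and 19 counts in KO 1 to 3 and 4, 6 and 2 counts in WT 1 to 3. In level this was 0.482 ± 0.0423 CPM in KO, against 0.151 ± 0.0201 CPM in WT (SD, n = 2). The change of 1.64 (95% interval 0.49 to 2.80) lay at the threshold (FDR 0.0504), and over the alternatives on normalised scales it was called in 5 of 13 (FDR 0.0247 to 0.224). It ranged from 1.31 without WT 3 to 2.12 without WT 2. Like Krt13 and Krt23, Pkp2 passed the low-count filter through the KO samples only. Pkp1 and Pkp3, the plakophilins of stratified epithelia, were at 1.41 to 2.09 and 0.719 to 0.735 CPM in KO and at 1.26 to 1.75 and 0.716 to 0.893 CPM in WT. Neither was called, with changes of 0.48 (FDR 0.201) and -0.09 (FDR 0.907).

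No desmosomal cadherin was called by edgeR among the 4 tested, 0 of them had an unadjusted p under 0.05, and DESeq2 called 0. Dsg2, the desmoglein of simple epithelia and heart, had 1, 0.925 and 0.555 CPM in KO 1 to 3 and 0.716, 0.481 and 1.16 CPM in WT 1 to 3. Dsc2, the desmocollin found with it, had 0.616, 0.308 and 0.555 CPM in KO 1 to 3 and 0.853, 0.612 and 0.272 CPM in WT 1 to 3. For both genes the WT libraries spanned all KO libraries, and the intervals were wide, from -0.62 to 0.82 for Dsg2 (difference 0.10) and from -1.44 to 0.61 for Dsc2 (difference -0.41). Dsc3 and Dsg1a, cadherins of stratified epithelia, had 56 and 27 counts over KO and 27 and 24 counts over WT. Their differences were 0.46 (95% interval -0.53 to 1.45) and -0.48 (95% interval -1.79 to 0.82). Dsg1a has near-identical copies in Dsg1b and Dsg1c, so its split is uncertain.

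The other 27 members were too low to test, with at most 16 counts in a library and 2 to 24 counts over all 6. All 4 hair root sheath keratins were among them, with 23 counts over KO and 24 over WT, of which Krt73 had 16 counts in KO 1 and none elsewhere. All 6 hair shaft and nail keratins were too, with 22 counts over KO and 10 over WT. The suprabasal and surface keratins below the filter (7 of 9, Krt1, Krt4 and Krt9 among them) had 30 counts over KO and 14 over WT. The stress keratins (5 of 6, among them Krt6a, Krt6b and Krt16) had 26 counts over KO and 31 over WT. Dsg1b had 16 counts over KO and 8 over WT, Dsg1c 6 counts over KO and 0 over WT, and Dsc1 0 counts over KO and 2 over WT. No difference in these genes was detectable at this depth.

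Divided by the length of the longest transcript, Pkp4 and Jup were the most abundant tested members in both groups. Pkp4 averaged 14.7 CPM per kb in KO and 4.77 in WT, and Jup 9.3 CPM per kb in KO and 7.39 in WT, so their order differed between the groups. In WT the 3 libraries of Pkp4 (4.48 to 4.98) and Jup (6.59 to 7.65) did not overlap, nor did they in KO (7.96 to 9.9 for Jup, with every Pkp4 library above). Next came Krt14 with 2.87 CPM per kb in KO and 3.28 in WT, and Krt5 with 2.63 in KO and 3.7 in WT. In KO the ranges of these partners overlapped (2.38 to 2.85 for Krt5 and 2.68 to 3.33 for Krt14), and in WT they did not (3.62 to 3.76 for Krt5 and 3.09 to 3.38 for Krt14). Dsp stood at 0.172 CPM per kb in KO and 0.158 in WT, and the 4 desmosomal cadherins at 0.0352 to 0.148 in KO and 0.0508 to 0.139 in WT. Jup and Pkp4 transcripts were thus present far above those of the desmosomal cadherins and Dsp in every library.

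Ratios within a library do not depend on the scaling between libraries. Counts of Krt5 per kb over those of Krt14 were 0.717, 0.974 and 1.05 in KO 1 to 3, against 1.12, 1.17 and 1.11 in WT 1 to 3. The ratio was lower in each KO library, and lowest in KO 1. Krt19 over Krt5 was 0.916, 0.668 and 0.641 in KO 1 to 3, against 0.294, 0.23 and 0.242 in WT 1 to 3, and Krt19 over Krt8 was 1.84 to 2.53 in KO and 1.33 to 1.52 in WT. Krt8 over Krt18 ranged from 0.355 to 0.734 in KO and from 0.514 to 0.555 in WT, so the groups overlapped. The first 3 ratios hold a gene that was called, and all were chosen after the values had been seen, so they are given as a description. An exact permutation test could not go below a two-sided p of 0.333 with 2 samples a group.

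**Figure D3:**
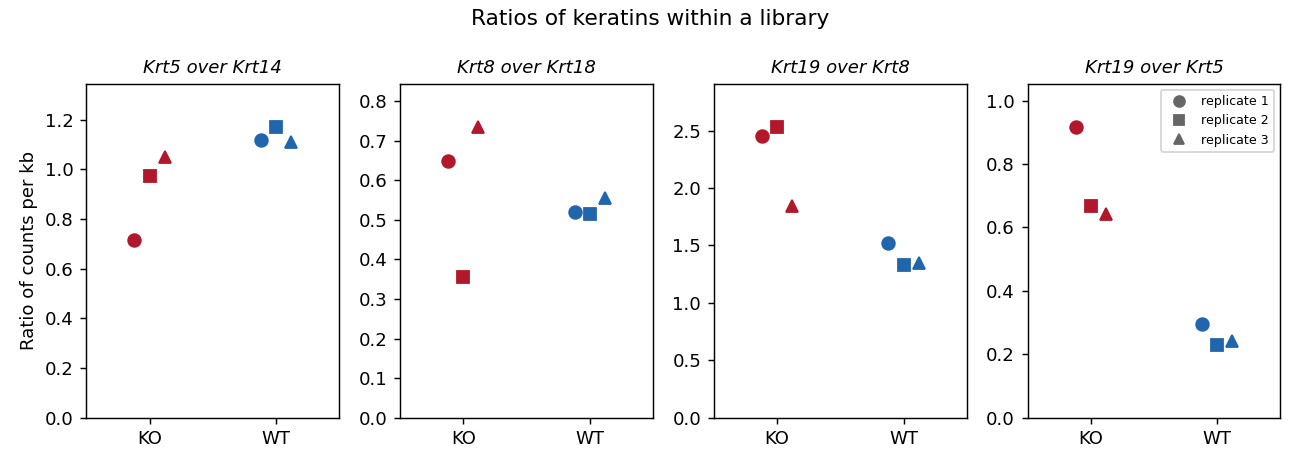
Ratio of counts per kb between keratins within each library, KO left and WT right, 1 symbol per library, each axis from 0. Krt5 over Krt14 is 0.717 to 1.05 in KO and 1.11 to 1.17 in WT, while Krt8 over Krt18 spans 0.355 to 0.734 in KO around the WT values of 0.514 to 0.555.

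Genes of the same epithelial structures outside the keratins and desmosomes did not move in 1 direction. Of 10 hemidesmosome and basement membrane genes, which fasten basal cells to the matrix, 6 were lower and 1 higher in KO (edgeR, FDR 0.05). Lamb3, a laminin chain of the epithelial basement membrane, had 3.29 ± 0.127 CPM in KO and 8.76 ± 0.582 CPM in WT (-1.41, FDR 1.79e-05). Itgb4, an integrin subunit of hemidesmosomes, had 3.26 ± 0.00686 CPM in KO and 7.56 ± 1.16 CPM in WT (-1.20, FDR 0.000148). Its KO libraries stood at 2.93, 3.25 and 3.53 CPM, a wider spread than this SD shows. Col7a1, the anchoring fibril collagen, was the higher one, with 11.3 ± 0.474 CPM in KO and 5.96 ± 0.332 CPM in WT (0.93, FDR 0.000207).

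Of 15 tested adherens and tight junction genes 2 were lower and 0 higher (2 higher at an unadjusted p under 0.05, and DESeq2 called 0 higher). Cdh1, E-cadherin, had 2.97 ± 0.449 CPM in KO and 5.54 ± 0.494 CPM in WT (-0.91, FDR 0.00244), and Ctnnb1, beta-catenin, 77.9 ± 6 CPM in KO and 105 ± 4.93 CPM in WT (-0.43, FDR 0.026). The tight junction genes Cldn1 and Cldn4 did not pass (-0.66 and 1.25, FDR 0.06 and 0.142). Of 8 tested cornified envelope genes Tgm1, the transglutaminase of the envelope, was called higher, with 2.75 ± 0.0454 CPM in KO and 0.971 ± 0.321 CPM in WT (1.55, FDR 0.000797), and none was called lower (2 lower at an unadjusted p under 0.05, and 0 by DESeq2). Calml3, Sbsn and Dmkn of that list did not pass (-1.77, 0.53 and -0.87, FDR 0.0677, 0.102 and 0.149). Of 12 epithelial transcription and splicing factors 0 were called in either direction by edgeR (2 higher and 0 lower at an unadjusted p under 0.05, and 0 by DESeq2). The smallest p values were those of Ehf (0.92, FDR 0.11) and Esrp2 (1.84, FDR 0.161). Esrp2 had 21, 10 and 78 counts in KO 1 to 3 and 8, 5 and 4 counts in WT 1 to 3. Its change rests largely on KO 3, and its levels overlapped between the groups.

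Markers of several epithelia moved with the groups in opposite directions. All 12 tested salivary acinar genes were higher in KO, with summed levels of 529 to 557 CPM in KO and 41.8 to 45.6 CPM in WT, and DESeq2 called 10 of them. Of these 12 genes, 4 passed the low-count filter through KO samples only (Lpo, Prol1, Aqp5 and Bhlha15), which favours a higher level in KO. Prol1 was at 0 in every WT library. Dcpp1 and Bpifa2, secreted salivary proteins, had the smallest p. Dcpp1 had 63.8 ± 10 CPM in KO and 0.71 ± 0.0114 CPM in WT, and Bpifa2 266 ± 4.61 CPM in KO and 21.2 ± 0.226 CPM in WT. The WT libraries of Dcpp1 stood at 0.716, 0.393 and 0.97 CPM, a wider spread than its SD shows. Of 6 tested salivary duct genes 3 were higher (1 by DESeq2), 1 of which passed the filter through KO samples only (Klk1b26), with sums of 10.4 to 11.6 CPM in KO and 1.92 to 2.76 CPM in WT. Klk1, a kallikrein of ducts, had the smallest p, with 7.29 ± 0.506 CPM in KO and 0.591 ± 0.158 CPM in WT. Krt5 and Krt14, which also mark myoepithelial cells, were not higher (-0.49 and -0.19). Of 5 tested myoepithelial genes outside the keratins, which smooth muscle also expresses, 4 were higher, led by Myh11 (0.69, FDR 0.000797). The sums of this list were 144 to 149 CPM in KO and 100 to 103 CPM in WT. In the other direction, 12 of 14 nasal and olfactory mucosa genes were lower, with sums of 24.5 to 25 CPM in KO and 77.3 to 78.2 CPM in WT, led by Obp2a, an odorant-binding protein (-3.52, FDR 9.74e-08). Of 7 genes of ameloblasts and dental epithelium 6 were lower, with sums of 422 to 437 CPM in KO and 1520 to 1620 CPM in WT, led by Amtn, an enamel matrix protein (-2.62, FDR 5.36e-08). Dcpp1, Klk1 and Obp2a have close copies in the genome, so their split is uncertain. The 3 tested hair follicle genes were not called (0 at an unadjusted p under 0.05, and 0 by DESeq2), with sums of 0.996 to 1.28 CPM in KO and 1.13 to 1.55 CPM in WT. Skeletal muscle genes were higher for 3 of 8 tested members, and osteoblast genes for 3 of 7 with 1 lower. The part of these cell types in the levels of Krt19, Krt13, Krt5, Pkp4 and the other members was not tested.

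**Figure D4:**
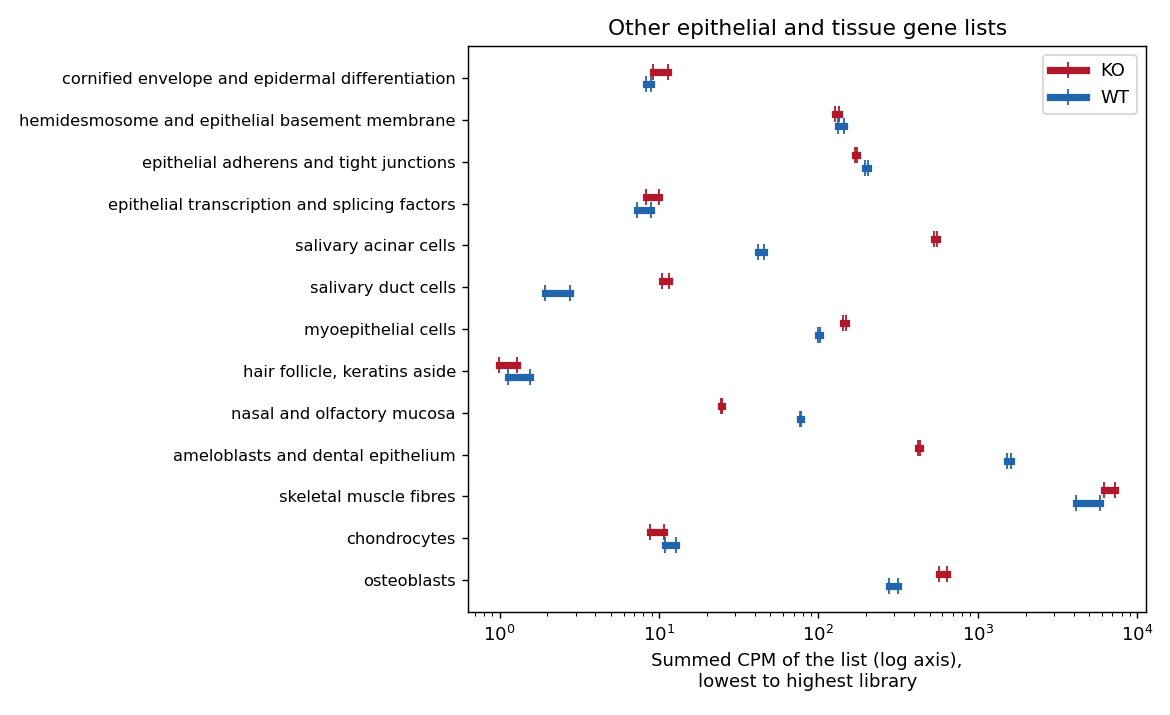
Summed level of each list of other epithelial and tissue genes, in CPM with TMM factors on a log axis, drawn from the lowest to the highest of the 3 libraries of a group, KO (red) above WT (blue). Salivary lists are higher in KO, and the lists of nasal mucosa and of dental epithelium are lower in KO.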

How the data were processed

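Gene expression was measured by RNA sequencing of TMJ tissue, with an mRNA isolation kit per the labels. The authors deposited 1 table of raw counts per gene symbol, with 1 column per library and no normalization. HISAT2 2.1.0, StringTie 2.1.5 and the build mm39 are listed, with no order, in the submitters' processing notes. They do not say which tool counted, nor the annotation, strand setting or rule for near-identical genes. From these counts, libraries of a group whose median ratio of observed to counting variance was at most 1.1 (genes with at least 20 summed counts, 2 counts per read pair) were summed, which left 2 samples a group. edgeR 4.0.16 in R 4.3.3 was run on the whole table: filterByExpr with a minimum count of 10, TMM factors, the robust quasi-likelihood test with group as the term, and Benjamini-Hochberg adjustment over all tested genes (FDR under 0.05 called). SEs were derived from the F statistic, and 95% intervals use the fit's degrees of freedom. The 95% intervals include the spread between samples as edgeR estimates it, while floors (3 read pairs, or 6 counts) cover counting error only. Nuclear counts of 2625472 to 4899680 per library set the depth. Levels per kb use the longest coding transcript in GENCODE M21 (GRCm38).

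The members, lists and tests were chosen with earlier results of these data known. Every tested member is named; values in all libraries are given for called members, for the 2 most abundant of each role and for Trp63, Krt5, Krt14, Krt8, Krt18, Dsp and Jup, and Ppl, Pkp2, Krt23, Krt1 and Ctnnd1 were added after their values were seen. From the other lists, up to 4 members of smallest p are named, 1 gene that this rule takes is not reported here, and Prol1, Lpo, Aqp5 and Bhlha15 were added after their values were seen. Alternatives were DESeq2 size factors, upper-quartile factors, mitochondrial genes left out, the Wald test of DESeq2 1.42.0, no filter, a minimum of 50 counts in 3 libraries, 6 separate libraries, a replicate block, leaving out each library and, added after the data were seen, library totals without factors and Krt13 left out of the count.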

Additional observations from a re-analysis of the deposited data

How the results depend on the processing

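Of the members called, Pkp4 and Krt19 kept their call in every alternative run, library totals included. The set of tested members changed with the setting, so counts and medians are not of the same genes throughout. With no filter 5 of 52 members were called higher, beside 1668 of 22032 genes. With the 6 libraries as separate samples 5 of 23 were higher and 2 lower, beside 1745 of 13806 genes higher and 3452 called in either direction. The median of the tested members was 0.14 there. Fits that left out 1 library tested 23 to 29 members. The DESeq2 Wald test called 3 of 25 higher and 0 lower (1 lower at an unadjusted p under 0.05), beside 896 of 14632 genes higher. On library totals without factors 12 were higher and 0 lower (0 lower at an unadjusted p under 0.05), the median was 0.84 and Krt5 turned to 0.06. This scaling moves the median of all genes by itself, and called 7348 of its 7734 calls higher, where TMM factors gave 1339 of 2580. Leaving out each library gave 2 to 3 members higher, 0 to 1 lower and a median of 0.09 to 0.25. The count of 0 lower was without KO 2, which leaves KO with 1 sample that is assumed to vary like the WT samples (leaving out WT 1 does the same to WT). There Krt5 was at -0.49 as before, 2 were lower at an unadjusted p under 0.05 and all genes called numbered 1149. The Wald test called 1634 genes. With Krt13 left out 2 members were higher. With a replicate block on 6 separate libraries, 4 of 23 were higher and 2 lower, with a median of 0.14, beside 1493 of 13806 genes higher. Deviations of libraries of the same number correlated at -0.09, -0.12 and 0.06, and those of different numbers at -0.12 to 0.19. Since KO 1 matched KO 3, and WT 2 matched WT 3, these values cannot show whether libraries were paired by number. The cause of the other shifts was not tested. Low counts limit the hair keratins most, of which none could be tested, then the stress keratins (5 of 6 not tested) and the suprabasal and surface keratins (7 of 9 not tested). Whether depth or low expression accounts for these counts was not tested.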
